A study of Oryzias latipes with 4 samples.

Results

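Nested single-exon models are transcript models with a length equal to the span of their locus, so that they hold no intron, and with a locus that lies wholly inside that of a spliced (multi-exon) model on the same chromosome. Among the 93896 models of the medaka table, 6724 were single-exon and 2349 of those were nested. The 1232 members described here were selected on their RNA-seq level, an FPKM (fragments scaled to model length and library size) that averaged 1 or more over both libraries, so that this level and any difference from it are descriptions. The 1232 models lay in 1173 host models: 1119 hosts held 1 of them, 49 held 2 and 5 held 3. Each nested model had exactly 1 host, and 1 of them shared an end with it.

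The tissue was the hypothalamus, pituitary and ventral telencephalon of female medaka (Oryzias latipes), collected 16 h after fish from a local dealer had been moved from SD to LD conditions, as the labels name them. Both groups come from that 1 condition: LD_RNAseq, made from total RNA, with 2 libraries, and LD_Riboseq, made from ribosome-protected fragments, also with 2 libraries. The sources used here give no age, strain or number of fish per library. The labels do not say that replicates came from separate fish, so the spread between them may be technical.

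Ribo-seq sequences the short stretches of mRNA that ribosomes cover, called footprints, and footprints per RNA serve as a measure of how much a transcript is translated. A model without introns inside another gene can be a gene of its own, a retrogene, a retained piece of an intron, an exon of the host given a separate model, or part of a noncoding RNA. Introns and noncoding RNAs usually carry few ribosomes. The strand of these models is not given, so RNA of the nested model, of the host's unspliced transcript and of an antisense transcript cannot be told apart. The models were named by position alone: a host carries a RefSeq symbol where gene and model each covered at least 50% of the other. No sequence of the models was analysed here.

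Known genes of the tissue were present. The hormone precursor gene pomc had RNA-seq FPKM of 247 and 231, the neuropeptide gene oxt 66.2 and 71.0, and the synaptic gene snap25 351 and 355. The pituitary hormone gene prl was near 0, with 0.367 and 0.114. Markers of other cells of the tissue were found too, among them the glial gene aldoc at 238 and 244, the immune gene cd74 at 41.2 and 41.5 and the vessel wall gene acta2 at 79.9 and 53.9. In bulk tissue, fewer cells of a type and less RNA per cell cannot be told apart.

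Nested models were short. Their lengths ran from 180 to 5136 nt, with quartiles of 210, 252 and 336 nt, and a median member took up 3.19% of its host's locus. Host models had a median length of 1119 nt over a median span of 8975 bases. The nested length was a multiple of 3 in 1202 of 1232 (97.6%), against 78.8% of all models and 71.6% of hosts. Their positions along the host were spread, with 107 to 152 in each of 10 equal parts of the host locus. Per 1000 models, chromosomes held between 9.4 (chromosome 24) and 17.8 (chromosome 8) of them.

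For short models FPKM is a coarse scale, because it divides by an effective length. The steps between FPKM values of models of equal length fitted, in all 4 libraries, the effective length that follows from fragments of 200 nt with an SD of 80 nt. This was inferred from the values and is not stated in the labels. Under it, a 180 nt model is divided by 21.3 nt, 8.45 times less than its length, a 252 nt model by 62.8 nt and a 1200 nt model by 998 nt. For a 180 nt model, 1 read was worth 2.15 and 2.01 FPKM in RNA-seq replicates 1 and 2, and 4.53 and 3.51 FPKM in Ribo-seq replicates 1 and 2. At 1200 nt the values were 0.0459, 0.0428, 0.0966 and 0.0748 FPKM. The number of reads behind each FPKM was recovered from these steps. Most of those numbers were not whole (29.0% to 43.9% of members' values above 0 lay within 0.02 of a whole read), so they are read equivalents, called reads below.

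The implied library sizes were about 21800000 and 23400000 fragments in RNA-seq and 10400000 and 13400000 in Ribo-seq. Nested models together took 43297 and 37908 RNA-seq reads and 14102 and 23893 Ribo-seq reads. A median member rested on 18.0 RNA-seq reads and 0.5 Ribo-seq reads over both libraries of an assay. In RNA-seq, 96 members had under 3 reads, 814 had at least 10 and 174 at least 100; in Ribo-seq, 232 had at least 10 and 69 at least 100. Reads were concentrated: the 10 members with the most held 43.5% of all members' footprint reads, and 25.2% of the RNA-seq reads lay in their top 10.

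RNA of nested models was read in nearly every library, which the RNA-seq threshold that chose them favours. Footprints, which the rule did not use, were often missing, in libraries of fewer fragments. Quartiles of RNA-seq FPKM were 2.26, 5.09 and 11.9 in replicate 1 and 1.94, 4.44 and 11.8 in replicate 2. In Ribo-seq the upper quartiles were 2.1 and 2.38, and members listed at 0 numbered 616 and 631. They numbered 25 and 32 in RNA-seq. Both Ribo-seq libraries listed 493 members (40.0%) at 0, exactly 1 library was above 0 for 261, and both were above 0 for 478. A further 163 members were above 0 but summed to less than 1 footprint read.

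**Figure D1:**
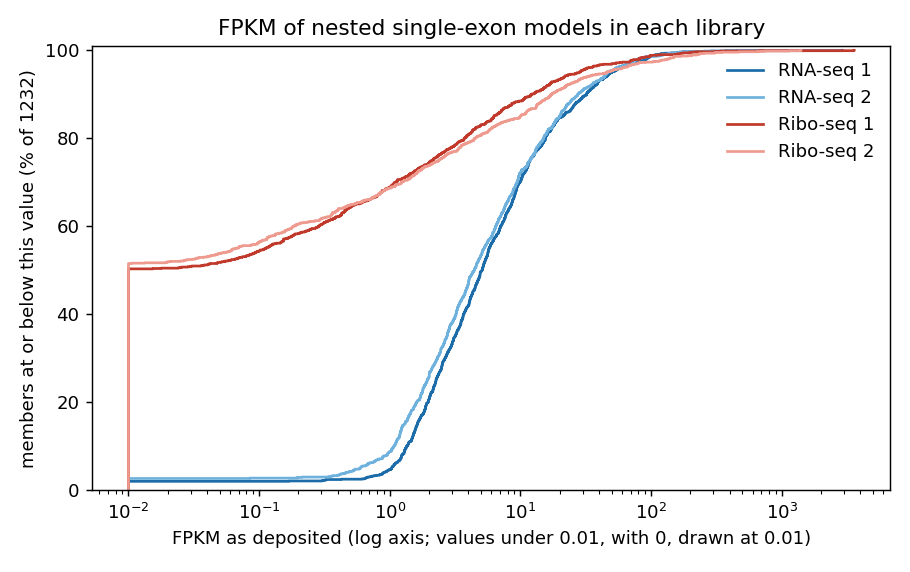
The plot shows, for each of the 4 libraries, the percentage of the 1232 nested models (vertical axis) at or below a given deposited FPKM (log horizontal axis, values under 0.01 drawn at 0.01). The Ribo-seq lines start near 50% and 51.2%, the share listed at 0, and the RNA-seq lines start near 2.03% and 2.60%.

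Depth bounds what a listed 0 can show. A count of 0 allows up to 3 reads over both Ribo-seq libraries, which at 180 nt is 5.93 FPKM, at 252 nt 2.01 FPKM and at 1200 nt 0.126 FPKM; this covers counting error only. Of the 493 members without footprints, 159 had an RNA-seq FPKM at or below that limit, so that a footprint level equal to the RNA level was not detectable in them. In the other 334 the limit was below the RNA-seq FPKM, and in 12 it was below 0.1 times that FPKM. The median member without footprints had 3.23 RNA-seq FPKM from 8.0 reads, against a limit of 2.85 FPKM.

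Among members with deeper RNA, 49 had at least 30 RNA-seq reads and 3 had at least 100 with no footprint read in either library. These 3 were chosen after their values were seen. The first lay in letm1, a gene of the inner mitochondrial membrane (chromosome 22, 21690063 to 21690317, 255 nt). It had RNA-seq FPKM of 46.8 and 41.1 against a footprint limit of 1.94 FPKM. The second lay in ddx6, which encodes an RNA helicase of mRNA storage and decay (chromosome 13, 5392329 to 5392529). Its RNA-seq FPKM were 95 and 79.1 and its limit was 4.11. The third lay in an unnamed host (chromosome 8, 25144948 to 25145178, 231 nt), with 53.8 and 53.2 FPKM and a limit of 2.62. All 3 hosts did have footprints, and the ddx6 host model was higher in Ribo-seq, by 1.82 on the log2 scale.

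The longer the model, the less often footprints were missing. Up to 200 nt, 57.2% of nested models were listed at 0 in both Ribo-seq libraries, and between 200 and 400 nt 43.1% were. The share was 11.8% between 400 and 1000 nt and 3.51% above 1000 nt. Isolated single-exon models, which overlap no other model, had 55.9%, 44.5%, 10.5% and 1.48% in the same classes. Spliced models that hold no nested single-exon model had 51.2%, 30.2%, 7.70% and 0.393%. Spliced models nested in another spliced model had 45.4%, 25.6%, 5.04% and 0.304%. In all 4 length classes, single-exon models, nested or isolated, thus had the higher share of models without footprints, with no test made. Depth was not matched within the classes. Between 400 and 1000 nt, median RNA-seq reads were 52.0 in nested single-exon models and 66.7 in spliced models that hold none. Above 1000 nt they were 212 and 387. Between 200 and 400 nt the nested models were also shorter and read less deeply. Up to 200 nt both medians were 8.98. Fewer reads alone can raise the share listed at 0.

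**Figure D2:**
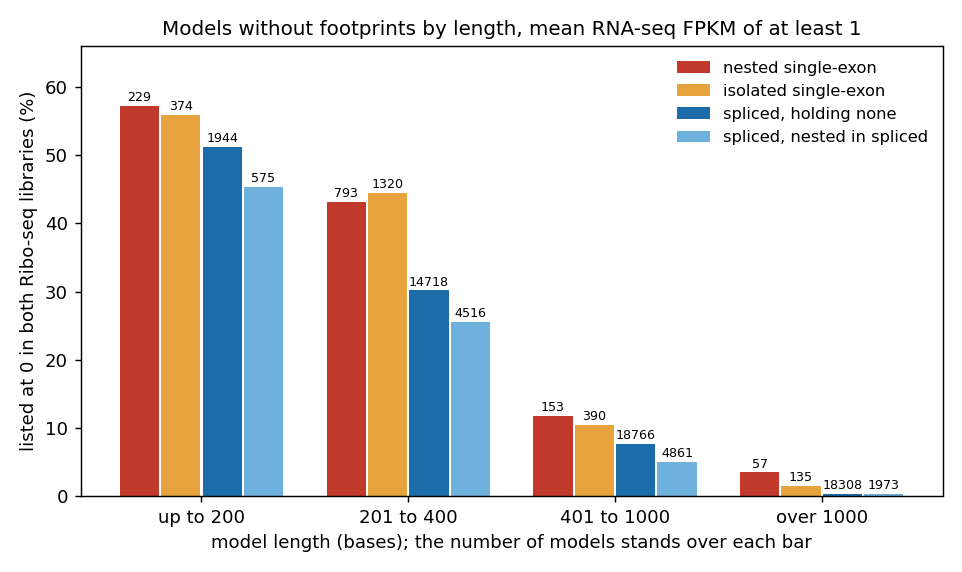
Bars give the percentage of models listed at 0 in both Ribo-seq libraries (vertical axis) by model length in nt, for nested single-exon, isolated single-exon, spliced and nested spliced models of at least 1 FPKM in RNA-seq, with the number of models over each bar. In the nested single-exon models it goes from 57.2% up to 200 nt to 3.51% above 1000 nt.

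Footprints were next set against RNA model by model, as the log2 difference of scaled FPKM plus 1, Ribo-seq minus RNA-seq, fitted with limma over all 58645 models that reach the same RNA-seq threshold. After scaling, 0 is the median ratio over models read in all 4 libraries, not an equal absolute level. At a Benjamini-Hochberg adjusted p below 0.05, 113 of 1232 nested models (9.17%) were called higher in Ribo-seq and 678 (55.0%) lower, where 20.2% and 39.5% of all tested models were called. Without scaling, 35 were called higher and 769 lower, with 4.14% and 48.5% over all tested models. The rule chose members on the RNA level that enters these calls, and nothing is read from the counts. The calls also include members on very few reads. With scaling, 40.6% of the 96 members with under 3 RNA-seq reads were called lower. Of the members with 3 to 10 RNA-seq reads, 62.4% were called lower. Where both Ribo-seq libraries list 0, the replicates show no spread, and the limit of 3 reads given above still applies. Before scaling, both Ribo-seq FPKM lay above both RNA-seq FPKM in 93 members (14.5% over all tested models) and below both in 901 (64.1% over all tested models).

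The median log2 difference was −1.25 in nested models, with quartiles of −2.17 and −0.55. It was −1.32 in isolated single-exon models, −0.47 in spliced models holding none, −0.38 in nested spliced models and −0.55 in all tested models. Per kilobase of full length, the median of the nested models was −0.53. No median on that scale is given for the other groups, so this value cannot be set against theirs.

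Deeply read nested models varied widely in their footprints per RNA. Of 174 nested models with at least 100 RNA-seq reads, 55 (31.6%) had a log2 difference of −2 or less. In 53 (30.5%) the difference was 1 or more. The other 66 (37.9%) lay between these limits, where 66.1% of the spliced models and 47.8% of the isolated single-exon models lay. Spliced models of this depth reached −2 or less in 7.67% of 24945 cases and 1 or more in 26.3%. Isolated single-exon models reached them in 23.8% and 28.4% of 324. The limits apply to scaled FPKM plus 1, so a model of low RNA-seq FPKM cannot reach −2 even without footprints. A 2082 nt nested model with 304 RNA-seq reads and 0.5 footprint reads, for example, had −1.83. Median RNA-seq FPKM at this depth was 21.2 in nested, 12.6 in isolated and 7.41 in spliced models, so the groups did not reach −2 equally easily.

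**Figure D3:**
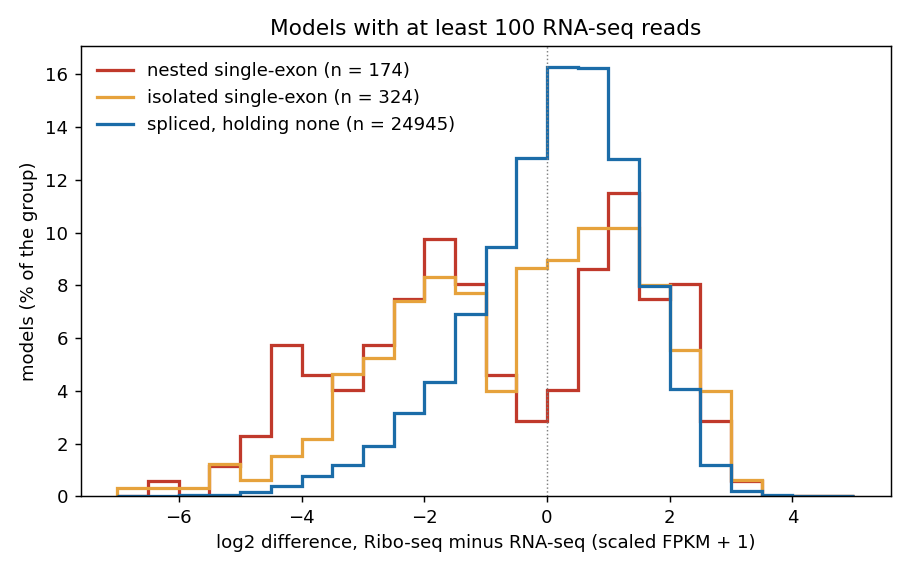
The histogram gives the percentage of models (vertical axis) by log2 difference, Ribo-seq minus RNA-seq of scaled FPKM plus 1 (horizontal axis, bins of 0.5), for models with at least 100 RNA-seq reads. Nested single-exon models (n = 174) have 31.6% at −2 or less and 30.5% at 1 or more, while the spliced models (n = 24945) peak between 0 and 1.

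Because length sets the scale, the comparison at 100 or more RNA-seq reads was repeated within length classes. That floor does not make depth equal. Above 1000 nt, median RNA-seq reads were 254 in nested, 316 in isolated and 461 in spliced models. Between 200 and 400 nt, 72 nested models with at least 100 RNA-seq reads had a median of 155 RNA-seq and 12.5 footprint reads, and a median log2 difference of −2.21 with quartiles of −3.70 and 1.13. In the same class, 92 isolated single-exon models had 40.2 footprint reads and −0.30, 1661 spliced models 63.0 reads and 0.22, and 669 nested spliced models 73.0 reads and 0.43. Between 400 and 1000 nt the 50 nested models had a median of 75.5 footprint reads and a difference of 0.46, against 0.26 in spliced models. Up to 200 nt there were 9 nested models of this depth, with a median difference of −0.30, beside −0.27 in 70 spliced and −3.62 in 12 isolated models. Above 1000 nt, 43 nested models had 27.5 footprint reads and −1.04, where 116 isolated models had 116 reads and 0.02. The median length of those 43 was 1974 nt, a length that several of them shared. The nested models thus had the lower median than spliced models up to 200 nt, between 200 and 400 nt and above 1000 nt, with a small difference in the first, and the higher one between 400 and 1000 nt.

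Long nested models are the ones in which depth limits least. There were 57 above 1000 nt, of which 27 (47.4%) had under 10 footprint reads, compared with 31.9% of 135 isolated single-exon models and 13.6% of spliced models of that length. At the other end, 15 had at least 100 footprint reads. Several of the 57 had the same length of 1974 nt, on several chromosomes. All models of that length among the 57 were called lower, on 1.77 to 8.82 footprint reads. Whether they are copies of each other was not tested. Of the 57, 14 (24.6%) were called higher and 29 (50.9%) lower, where 32.9% and 23.8% of spliced models and 34.1% and 37.8% of isolated models of that length were. The model in the locus of purb, which encodes a nucleic acid binding protein, was chosen after its values were seen (1086 nt): it had RNA-seq FPKM of 12.5 and 10.7 and Ribo-seq FPKM of 19.3 and 31.7, and the assays did not overlap.

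**Figure D4:**
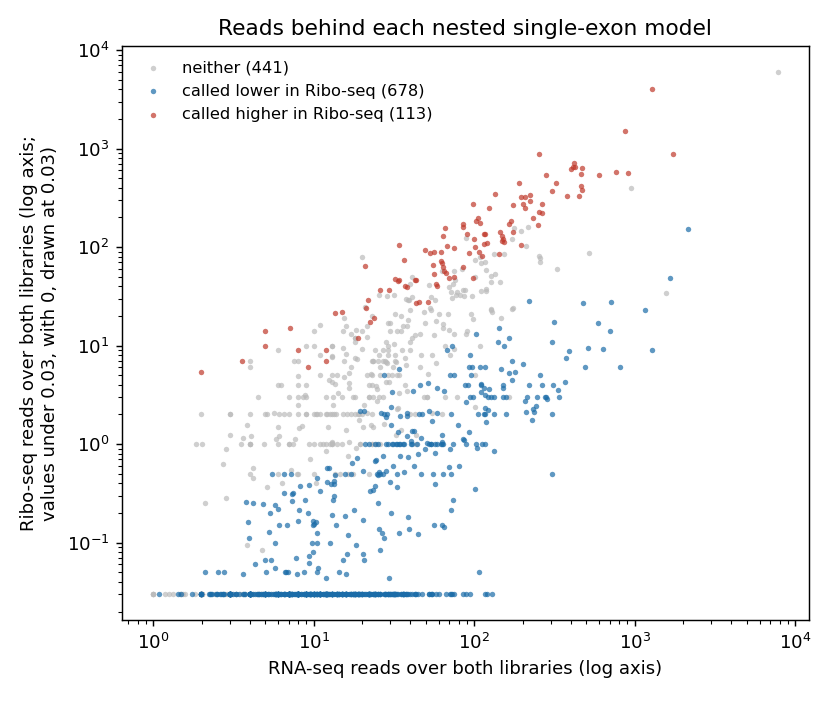
Each point is 1 nested model, with its RNA-seq reads over both libraries on the horizontal axis and its Ribo-seq reads on the vertical axis (both log, Ribo-seq values under 0.03 drawn at 0.03), coloured by limma call. The 493 members listed at 0 lie on the bottom line, and 3 of them have at least 100 RNA-seq reads.

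Summed over members, there were 46.8 footprint reads per 100 RNA-seq reads, or 43.6 without the member of highest RNA-seq FPKM. Isolated single-exon models had 42.7, spliced models holding none 64.1, host models 55.7 and nested spliced models 97.4. Nested models held 2.65% and 2.32% of the summed RNA-seq FPKM and 1.47% and 1.5% of the summed Ribo-seq FPKM. FPKM weights short models heavily: of the recovered reads in models, they held 0.391% and 0.318% in RNA-seq and 0.291% and 0.249% in Ribo-seq. On both measures both footprint shares were below both RNA shares, a description, since the RNA level chose the members.

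Nested models, on fewer reads, repeated less well than their hosts. Median reads over both libraries were 18.0 in RNA-seq and 0.5 in Ribo-seq for members, against 206 and 62.3 for tested hosts. No comparison at equal depth was made. Replicates differed by over 2-fold in FPKM plus 1 in 18.3% of members in RNA-seq and 22.7% in Ribo-seq, against 2.44% and 9.64% of tested hosts. Across the 1232 members, the rank correlation (Spearman's rho) was 0.80 for the pair of RNA-seq libraries, 0.67 between the Ribo-seq libraries and 0.46 between the assays' means. For tested hosts the values were 0.94, 0.92 and 0.71. These describe models within shared libraries of different depth.

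Set against the host, the direction of the RNA comparison depended on how length is handled. In FPKM as deposited, the nested model lay above its host in 880 and 854 of 1232 cases in RNA-seq and in 430 and 416 in Ribo-seq. Per kilobase of full length, the nested model was above the host in only 528 and 540 cases in RNA-seq, and in 335 and 329 in Ribo-seq. On both scales the footprints of the nested model exceeded the host's less often than its RNA did. The rule favours this, since it set an RNA level for nested models and none for hosts. A host below 1 FPKM in RNA-seq held 320 members. Equal values, mainly in Ribo-seq, count as not above. In FPKM as deposited, the nested model lay below its host in 349 and 377 cases in RNA-seq and in 649 and 647 in Ribo-seq. Levels of nested model and host were weakly related, with rho of 0.40 and 0.41 in RNA-seq and 0.23 and 0.27 in Ribo-seq over the 1232 pairs, which share reads where they overlap and a library.

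Relative to the host, nested models had fewer footprints for their RNA in most pairs. In the 912 pairs whose host had an RNA-seq FPKM of at least 1, the log2 difference of the nested model minus that of its host had a median of −1.06, with quartiles of −2.24 and 0.09; it was below 0 in 663 pairs and above in 249. This median was −0.41 per kilobase of full length, −0.43 with no RNA-seq threshold on the nested models and −2.08 with a pseudocount of 0.1. The nested models of these pairs had a median difference of −1.38 and their hosts −0.18. In 9051 pairs of a spliced model nested in a spliced model, the median was −0.12. In a limma fit over all 9963 nested pairs, 31 of the 912 were called higher and 287 lower, with 6.56% and 14.1% called over all pairs at an adjusted p below 0.05. The RNA level of both models was used to choose these pairs, so the counts are a description. With either RNA-seq library left out, a fit over the 912 pairs alone called 0 higher and 0 lower by limma, against 29 and 291 with all libraries. At unadjusted p below 0.05 it then called 29 and 287 without replicate 1, and 33 and 289 without replicate 2.

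In more deeply read members, footprint reads went with what RefSeq annotates at their place. No member overlapped a RefSeq tRNA, snoRNA, snRNA, miRNA or rRNA gene (0 of 1232 for each), 935 overlapped a protein-coding gene and 269 no gene. Among members with at least 30 RNA-seq reads, the 74 on no RefSeq gene had a median of 2.14 footprint reads. The 361 on a protein-coding gene had 10 footprint reads. Their median RNA-seq reads were 70.8 and 73.5. By host, the 177 in a host with a RefSeq gene had 15.0 footprint reads and the 268 in a host without had 4.21, at 73.8 and 73.9 RNA-seq reads. Over all members, the median log2 difference was −1.22 in the 269 on no gene and −1.26 in the 927 on protein-coding genes only. The upper quartiles were −0.82 and −0.16. By host, the median over all members was −0.99 with a RefSeq gene (n = 374) and −1.37 without (n = 858).

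Footprint reads of these deeper members also rose with the host's own footprint level. Members with at least 30 RNA-seq reads had a median of 2.18 footprint reads in the 64 whose hosts had the lowest Ribo-seq FPKM. The next groups had 5.88 reads (n = 100) and 8.0 (n = 111), and the 170 whose hosts had the highest had 13.5. RNA-seq reads of these groups were 72.2, 70.2, 62.9 and 90.9, so that RNA depth differed mainly in the last group. Whether footprints of the host's exons were assigned to the nested model was not tested.

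Few members matched a RefSeq gene of their own by position. A match needed the same mutual coverage of gene and model as for hosts, so a gene reaching far beyond the model is missed. The nested models in purb and adra2a, for example, had no match of their own. How many members are genes of their own was not tested. RefSeq genes matched 18 members, of which 15 were protein-coding, 2 pseudogenes and 1 lncRNA, and 2 had a symbol. The rbm15 model encodes an RNA-binding protein of the m6A writer complex (chromosome 7, 10861290 to 10863827, 2538 nt). It had RNA-seq FPKM of 15.9 and 16.7 and Ribo-seq FPKM of 12.3 and 18.3, so the assays overlapped before scaling; the scaled log2 difference was 0.65 ± 0.14 (SE, n = 2 per assay). The rrs1 model encodes a ribosome biogenesis factor (chromosome 20, 17066949 to 17068156, 1208 nt). Its RNA-seq FPKM were 7.09 and 7.10 and its Ribo-seq FPKM 16.2 and 20.7, without overlap. Both hosts were below 1 FPKM in RNA-seq, at 0.814 and 0.751 for rbm15 and 0.195 and 0.402 for rrs1.

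The member of highest level was a 312 nt model on chromosome 23 (2055024 to 2055335) in an unnamed host model of 234 nt. It had FPKM of 2917 and 209 in RNA-seq and of 3598 and 1152 in Ribo-seq. Its RNA-seq replicates were far apart, and RNA-seq replicate 1 lay between both Ribo-seq values. The log2 difference of 2.19 had an SE of 1.57 and was not called. This model alone held 16.7% and 1.46% of members' RNA-seq reads, and 30% and 7.32% of their Ribo-seq reads. Its host was listed at 0 in RNA-seq.

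Several of the members highest in RNA had few footprints. The model in LOC105354522 (chromosome 19, 23037940 to 23038158, 219 nt) had RNA-seq FPKM of 373 and 394 and Ribo-seq FPKM of 14.2 and 14.7. Its RNA rested on 331 and 375 reads and its footprints on 6.0 and 8.0, and the log2 difference was −3.85 ± 0.21 (SE, n = 2 per assay). The model in ivns1abp, a gene of the kelch protein family (chromosome 4, 15231232 to 15231429, 198 nt), had 287 and 430 against 23.1 and 51.0. In an unnamed host on chromosome 2 (21897044 to 21897391, 348 nt) the values were 213 and 253 against 20.3 and 1.52. The assays did not overlap in any of these 3, while the Ribo-seq replicates of the last were over 10-fold apart. That last model, with a log2 difference of −4.22 and an SE of 1.33, was not called.

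In srsf5, which encodes a splicing factor, a 492 nt model (chromosome 22, 1443858 to 1444349) had RNA-seq FPKM of 164.1 and 164.0 and Ribo-seq FPKM of 21.6 and 22.1. Its RNA rested on 1041 and 1114 reads and its footprints on 65.0 and 86.0, the best-read case among the members highest in RNA and low in footprints that are named here. The srsf5 host model differed by −0.06 on the log2 scale and the nested model by −2.06 ± 0.21 (SE, n = 2 per assay).

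Among members in a host with a symbol that is not only a locus number (which leaves out the LOC names), an RNA-seq FPKM of at least 5, values above 0 throughout and no overlap between the assays (51 members, 25 with footprints above and 26 below), the largest excess of footprints was in zmat5. That gene encodes a zinc finger protein of the minor spliceosome. Its 207 nt nested model (chromosome 12, 13592620 to 13592826) had RNA-seq FPKM of 163 and 167 and Ribo-seq FPKM of 672 and 1409, a log2 difference of 3.36 ± 0.24 (SE, n = 2 per assay). The host had only 2.14 and 2.49 in RNA-seq and 1.8 and 2.29 in Ribo-seq. The model thus stood far above its host in all 4 libraries. The 25 and 26 members above and below describe the naming rule alone. No count under these limits is given over all tested models.

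In the next 5 of this order, the host was also higher in footprints. Nested in aqp1, a water channel gene, a 285 nt model (chromosome 17, 28341147 to 28341431) had 12 and 20.4 in RNA-seq and 85.3 and 66.1 in Ribo-seq, a log2 difference of 2.96 beside 2.22 for the host. The fosl2 gene encodes a transcription factor of the AP-1 family, and its 192 nt nested model (chromosome 22, 25932112 to 25932303) had 100.4 and 124 against 309 and 739, with differences of 2.89 and 2.19 for model and host. In cldn5, a tight junction gene of vessel endothelium, a 300 nt model (chromosome 9, 6345830 to 6346129) had 47.6 and 34.6 against 119 and 238, with differences of 2.82 and 2.25.

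For eps15, which encodes an endocytic adaptor, the 240 nt model (chromosome 4, 31382399 to 31382638) had 106 and 123 in RNA-seq and 342 and 473 in Ribo-seq, and differences of 2.61 and 2.49. The ewsr1 gene encodes an RNA-binding protein, and its 192 nt nested model (chromosome 9, 12689171 to 12689362) had 100.1 and 72.6 against 222 and 347, with differences of 2.49 and 1.67. The SE of these 5 differences ran from 0.16 to 0.44. None of these 5 pairs was called in the fit over all nested pairs, while the zmat5 pair was. The model in LOC101159507 (chromosome 8, 15179042 to 15179628, 587 nt) was also among the 6 highest in footprints. It had 71.5 and 75.1 in RNA-seq and 158 and 663 in Ribo-seq, on 633 and 3421 footprint reads, so that Ribo-seq replicate 1 was closer to the RNA-seq values than to Ribo-seq replicate 2.

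**Figure D5:**
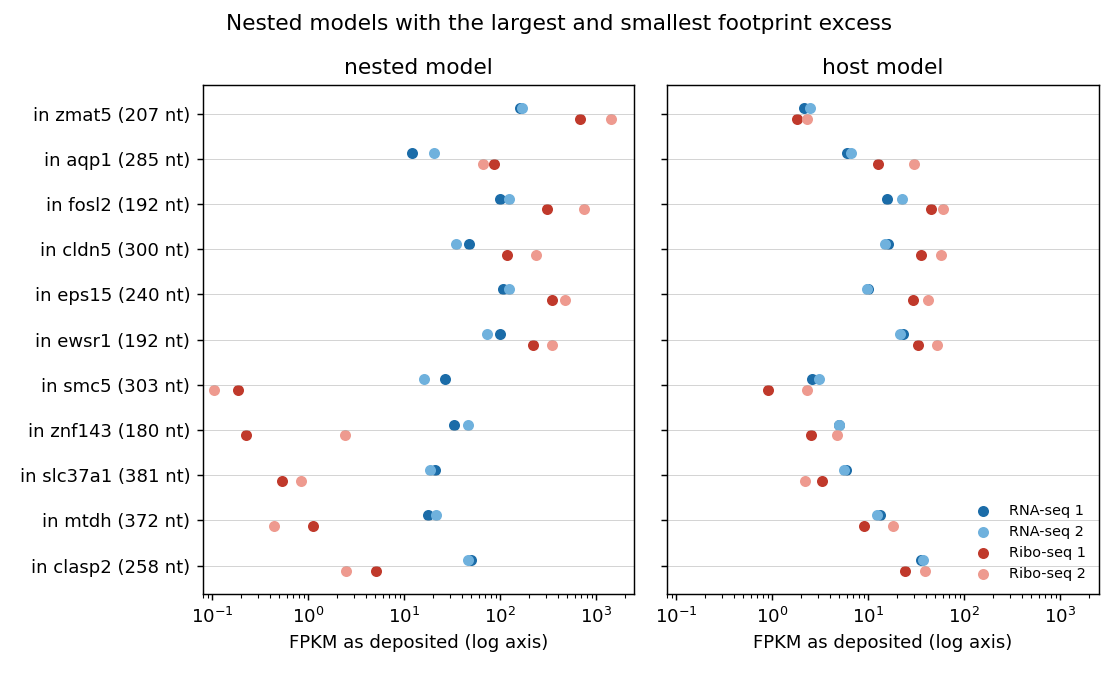
Points give deposited FPKM (log horizontal axis) in each of the 4 libraries for the 6 nested models with the largest log2 difference under the naming rule and 5 of those with the smallest, with the nested model on the left and its host on the right. In the upper 6 both Ribo-seq points lie right of both RNA-seq points, in the lower 5 they lie left, and the hosts of the lower 5 differ by −0.20 to 0.74 on the scaled log2 scale.

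At the opposite end, the hosts differed by −0.20 to 0.74 on the scaled log2 scale while the nested models had few footprints. In FPKM as deposited, the hosts smc5, znf143 and slc37a1 were lower in both Ribo-seq libraries than in either RNA-seq library. The hosts mtdh and clasp2 were not. A 303 nt model in smc5, a gene of chromosome maintenance (chromosome 7, 11198122 to 11198424), had RNA-seq FPKM of 26.3 and 16.3 against Ribo-seq FPKM of 0.187 and 0.105, under 1 footprint read in all, beside 60.4 and 40.0 RNA-seq reads. The model in znf143, a transcription factor gene (chromosome 6, 7438543 to 7438722, 180 nt), had 32.9 and 46.4 against 0.227 and 2.44. In slc37a1, a sugar-phosphate transporter gene, a 381 nt model (chromosome 21, 31087444 to 31087824) had 20.7 and 18.4 against 0.537 and 0.831, that is 81.4 and 77.2 RNA-seq reads and 1.0 and 2.0 footprint reads. All 3 nested models were lower in both Ribo-seq libraries than in either RNA-seq library, which the naming rule fixed in advance.

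The 372 nt model in mtdh, which encodes a membrane protein also called metadherin (chromosome 16, 6512958 to 6513329), had RNA-seq FPKM of 17.6 and 21.2 and Ribo-seq FPKM of 1.13 and 0.437. In clasp2, a microtubule plus-end gene, a 258 nt model (chromosome 11, 22101992 to 22102249) had 49.9 and 46.4 against 5.03 and 2.50. The log2 differences of these 5 models ran from −3.76 to −2.68 with SEs of 0.16 to 0.58, while those of their hosts ran from −0.20 to 0.74. All 5 pairs were called lower in the fit over all nested pairs, but their nested models were picked for small differences in the same data.

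The 5 hosts with 3 nested models each show how members of 1 host can differ. In ubtf, which encodes a transcription factor of ribosomal RNA genes (chromosome 8), the first model (4605713 to 4605913) had RNA-seq FPKM of 54.9 and 46.1 and Ribo-seq FPKM of 19.6 and 79.6. The 219 nt model (4606784 to 4607002) had 37.1 and 44.1 and was listed at 0 in both Ribo-seq libraries, on 32.9 and 41.9 RNA-seq reads. The 183 nt model (4611486 to 4611668) had 143 and 178 against 12.9 and 0. So footprints overlapped the RNA range in the first, and were lower in both libraries in the other 2. Only the 219 nt model was called lower. The 183 nt model, on 3.0 and 0 footprint reads, had a log2 difference of −4.7 with an SE of 1.61.

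The 3 models in cars, the cysteinyl-tRNA synthetase gene (chromosome 3, from 648122), were listed at 0 in both Ribo-seq libraries, with RNA-seq FPKM between 1.88 and 6.25 on 1.33 to 3.07 reads a library. The host itself had 6.37 and 12.6 Ribo-seq FPKM. The 3 models in sdr42e1, a dehydrogenase family gene (chromosome 3, from 30473057), had RNA-seq FPKM of 2.32 to 6.31 and Ribo-seq FPKM of 0.872 to 13.9, above the host's 0.353 and 0.513 in RNA-seq. None of those 3 was called. In LOC101162349 (chromosome 2, from 21948858) the RNA-seq values ran from 0 to 13.0 and the Ribo-seq values from 0 to 2.29. In the unnamed host on chromosome 7 (first model from 15623632) they ran from 1.91 to 22.2 and from 0 to 10.9.

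Of 4 groups of host genes, 3 held no nested model: translation genes and snoRNA hosts, ion channels and neurotransmitter receptors, and pituitary hormones with hypothalamic neuropeptides each had 0. Only 189 of 1173 hosts had a symbol, so the groups cover a small part of the hosts. The group of synaptic adhesion and axon guidance genes was taken by symbol and held 3. Of these, cdhr2 entered only because its symbol begins with cdh, and whether it belongs by function was not checked. Among the 3, 1 was called higher and 2 lower, too few to set against the 20.2% and 39.5% of all tested models. In cdhr2, a cadherin-related gene, a 426 nt model had RNA-seq FPKM of 29.8 and 32.2 and Ribo-seq FPKM of 5.25 and 1.75. The model in nlgn3b, a postsynaptic adhesion gene of the neuroligin family, had 96.0 and 91.3 against 16.7 and 27.8, while the one in pcdh18, a protocadherin gene, had 14.7 and 18.7 against 32.2 and 46.1. The assays did not overlap in any of the 3.

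The threshold of 1 FPKM falls where members rest on very few reads. Just above it, a 180 nt model on chromosome 1 (from 1629338) had RNA-seq FPKM of 0 and 2.0, a 270 nt model on chromosome 14 (from 11641070) had 0.894 and 1.11, and a 222 nt model on chromosome 7 (from 33380854) had 0 and 2.01. These stand for 0 to 2.0 reads in a library. Just below it, a 252 nt model in LOC111947932 had 1.09 and 0.907, a 495 nt model on chromosome 22 (from 21961043) had 1.12 and 0.878, and a 225 nt model on chromosome 10 (from 16351800) had 1.03 and 0.964. The 495 nt model, on 7.17 and 6.03 RNA-seq reads, was thus read more deeply than the 3 models above the threshold.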

How the data were processed

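RNA-seq and Ribo-seq were measured with 2 libraries each (TruSeq Ribo Profile Mammalian Library Prep kit, per the labels). The values are FPKM deposited by the authors for 93896 models, per the file headers. TopHat2 2.1.0 and Cufflinks 2.2.1 are named in the submitters' processing notes; no source used here gives build, annotation or strand. FPKM were divided by median-ratio factors (1.398, 1.32, 0.651 and 0.925) from the models read in every library, and log2(scaled FPKM + 1) was compared between assays by lmFit and eBayes with trend from limma 3.58.1 (R 4.3.3; Benjamini-Hochberg), checked on simulated data. FPKM are printed as deposited, before scaling, so their ratios differ from the log2 differences, which understate the differences of low models.

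Effective lengths and read equivalents were inferred from FPKM steps, which varied by 0.0207% to 0.121% between 143 to 169 lengths per library. As few values were whole reads, no count test was run. Names and RefSeq types come from the table of assembly ASM223467v1, by position without strand: 17796 models matched one of its 26845 genes, and 8368 of those models a gene with a symbol. In support of that build, 2137 model ends lay within 10 bp of a protein-coding gene's end, against 60 after a move of 20 kb. Printed model starts are the deposited starts plus 1, so that coordinates count from 1. Python 3.11.15 with scipy 1.17.1, numpy 2.4.6, pandas 2.3.3 and matplotlib 3.10.9 served for the rest.

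The members, gene lists and tests were chosen with earlier results of these data known. Named were the 6 members highest in each assay, the 6 with the largest and the 6 with the smallest difference under the limits given in the text, the hosts with most members, members with a symbol of their own and the 3 models on each side of the threshold; 1 of the 6 with the smallest difference is not reported here. The fit of pairs was widened to all nested pairs after the data were seen, so that p-values are not adjusted over members alone. Alternatives covered scaling, pseudocount, filter, threshold, host, length and libraries left out. Whether replicate numbers mark pairs is not given.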

Additional observations from a re-analysis of the deposited data

How the results depend on the processing

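The median log2 difference of members was below 0 under every alternative run. It was −1.25 as reported, −1.60 without scaling, −1.15 with upper quartile scaling, −3.30 and −1.83 with pseudocounts of 0.1 and 0.5, −1.56 with a filter on the mean of all 4 libraries and −2.20 with an RNA-seq threshold of 5, whether put on members or on all models. It was −0.42 with no threshold, −1.13 and −1.29 with members chosen by RNA-seq replicate 1 or 2 and measured in the other, −1.5 in members with at least 10 RNA-seq reads and −0.53 per kilobase of full length, the last 2 chosen after the data were seen. With 1 library left out it ran from −1.35 to −1.24. A negative sign is favoured by the members listed at 0 and, where kept, by the RNA-seq threshold. Over all tested models the median was −0.55 as reported, and it is not given for the other settings. The constant sign is therefore not read as a trait of members.

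The median against the host (−1.06) was −0.98, −1.12, −2.08 and −1.39 under the first 4 of these settings, −0.94 over hosts of any FPKM, −0.94 by replicate 1, −1.39 at a threshold of 5, −0.43 with none, −1.11 with at least 10 reads, −0.41 per kilobase of full length, and −1.12 to −0.98 with 1 library left out. Members called higher (113) fell to 35 without scaling and ranged from 29, without either RNA-seq library, to 155, without Ribo-seq replicate 1; members called lower (678) ranged from 580 to 688 with 1 library left out, numbered 769 without scaling and 543 with the filter on all 4 libraries, and 328 where only models with an RNA-seq FPKM of at least 5 were tested. Pairs called higher in the fit over members' pairs (29) numbered 44 over hosts of any FPKM and 58 per kilobase of full length. They ranged from 0 to 42, and pairs called lower (291) from 0 to 255, with 1 library left out. Those fits called 0 without either RNA-seq library. Members listed at 0 in both Ribo-seq libraries (493) numbered 171 at a threshold of 5, 1245 with none, 202 with at least 10 RNA-seq reads, and 457 to 631 with 1 library left out. The cause was not tested. Shares called over all tested models moved with the setting too: 20.2% higher and 39.5% lower as reported, but 4.14% and 48.5% without scaling. For the other settings of this section such shares are not given, so nothing about members is read from these counts.

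Replicate numbers are shared by the assays, but across 58645 models the deviations of same-numbered libraries correlated by 0.063, and 2 pairs cannot establish a pairing. With the replicate number as a block, 117 members were called higher and 693 lower, and 10 and 214 pairs; the median log2 differences were the same. Depth limits the short members most: 418 of 1232 rest on under 10 RNA-seq reads.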
